A study of Mus musculus with 24 samples.

Results

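A set of 10 genes that mark blood vessels or steer their growth was followed in whole kidneys of megabladder mice. The set held the endothelial marker genes Pecam1, Cdh5, Emcn, Ehd3 and Plvap, the receptors Kdr, Flt1 and Tek, and the growth factors Vegfa and Angpt2. The genes were chosen by name, as those whose probes carry an accession that maps to them, and all 10 were among the 27971 genes tested. Global transcription had been measured in 24 kidneys of age-matched male mice, which the labels call young adult and the methods place in the days after the usual age of weaning. Of these, 6 were mgb+/+ control kidneys and 18 came from mgb-/- mice, which carry the megabladder mutation on both alleles and develop hydronephrosis, the swelling of a kidney whose urine cannot drain. The hydronephrosis degree of the mgb-/- kidneys had been graded by ultrasound, from the share of parenchyma left, as mild in 7, moderate in 5 and severe in 6. No agent is named for any group, and no mgb-/- kidney free of hydronephrosis was included, so genotype and obstruction cannot be told apart in the comparison with control. The sources do not say which kidneys share a mouse, and p-values therefore measure the spread between kidneys.

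Vascular endothelial growth factor A, encoded by Vegfa, is released in the kidney mainly by podocytes and tubule cells and acts on endothelium through the receptor encoded by Kdr. The receptor encoded by Flt1 binds the same ligand tightly and, as a soluble form, takes it away from Kdr. The angiopoietins act through the Tek receptor, Angpt1 as the ligand that keeps vessels quiet and Angpt2 as the one that loosens them and is made by endothelium itself. The renal endothelium is known to thin out in obstructed kidneys, and its glomerular, peritubular and vasa recta segments carry different surface genes.

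A level is given here as the log2 signal of a probe minus the 75th percentile of its array, so that 0 is that percentile, and a change is a difference of such levels. Levels of different probes are not compared. Each array held 1 kidney. There were 3 slides of 8 arrays, and every slide carried 2 controls beside 6 mgb-/- kidneys. Between 55.1% and 70.7% of probes stood well above background, the lowest share belonging to severe replicate 4. The members stood well above background on all 24 arrays, apart from Plvap, whose brighter probe was marked as uneven on severe replicate 4 and had no value there. The tissue carried kidney markers, with 5 of 5 proximal tubule markers and 7 of 7 podocyte markers well above background on every array. In severe kidneys all 5 urothelial markers rose against control by 3.17 to 3.84 on the log2 scale, and 1 of 5 proximal tubule markers fell. In a whole kidney, fewer cells of a type and less RNA in each of them cannot be told apart.

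The first comparison asked whether vascular genes differ between mgb-/- and control kidneys, and 1 of the 10 did. Flt1 rose, by 0.29 on the log2 scale, and none fell. The test was limma over all genes with Benjamini-Hochberg adjustment at a threshold of 0.05, which 13.3% of the 27971 genes passed, 5.34% as higher and 8% as lower. At an unadjusted p under 0.05 the counts were 3 of the 10 and 29% of all genes. The median change of the 10 genes was 0.00, beside 0.01 for all genes, with 5 above 0 and 5 below. In severe kidneys alone, Angpt2 rose and Kdr fell, so 2 of 10 passed where 16.1% of all genes did, 6.56% as higher and 9.55% as lower. At an unadjusted p under 0.05 the same 2 lay beside 31.8% of all genes. In mild and in moderate kidneys none of the 10 passed, against 6.02% and 1.2% of all genes. At an unadjusted p under 0.05, limma placed 2 of the 10 in the mild comparison, Flt1 and Angpt2, and 1 in the moderate comparison, Flt1, where 21.4% and 18.4% of all genes lay. These shares are near or below those of all genes, so the counts set the 10 genes apart from the rest of the array in no comparison with control.

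**Figure D1:**
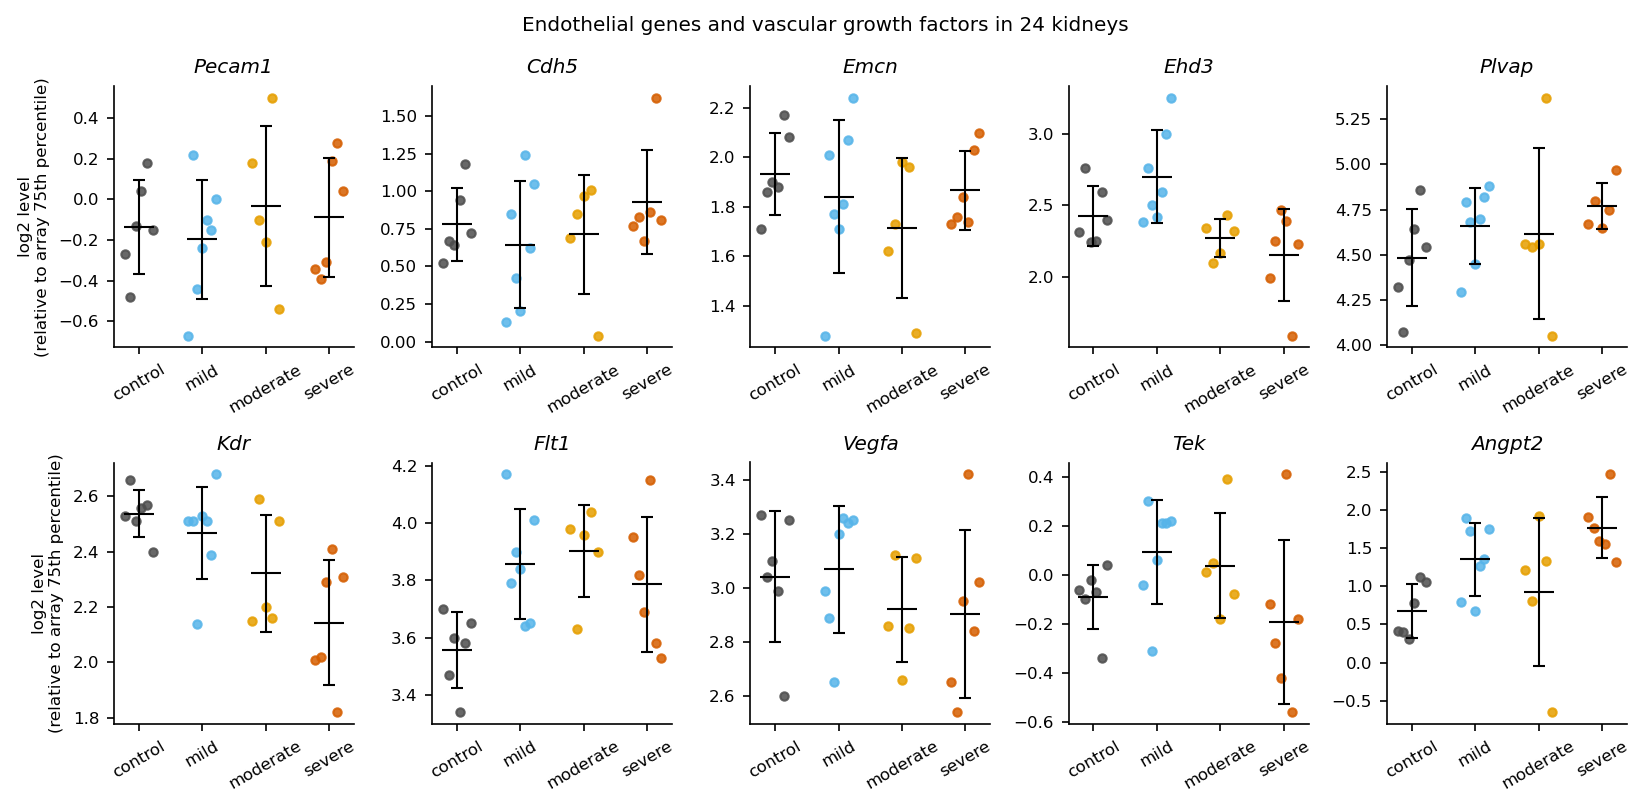
Log2 level of each of the 10 genes in the 24 kidneys, relative to the 75th percentile of the array. Points are kidneys, bars are the group mean and SD, each panel has its own axis and no axis starts at a true zero. Angpt2 in the 6 severe kidneys lies above all 6 controls, and 5 of 6 severe kidneys lie below all controls in Kdr.

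Kdr encodes the main signalling receptor for VEGF on endothelium. Its level in control kidneys ran from 2.40 over a median of 2.54 to 2.66. Mild kidneys ran from 2.14 over 2.51 to 2.68. The 5 moderate kidneys were at 2.15, 2.59, 2.20, 2.16 and 2.51, and the severe kidneys ran from 1.82 over 2.16 to 2.41. Control kidneys lay close together, moderate kidneys fell into a low set of 3 and a high set of 2, and 5 of 6 severe kidneys lay below every control, with the sixth inside the control range. Severe kidneys were thus lower than control by 0.39 on the log2 scale, a change of -0.39 (SE 0.11, 95% interval -0.63 to -0.16) and 0.761 of the control signal, with an adjusted p of 0.0235 from limma. The mild change was -0.07 (SE 0.11, adjusted p = 0.791) and the moderate one -0.22 (SE 0.12, adjusted p = 0.327). Over all mgb-/- kidneys Kdr changed by -0.22 (SE 0.10), an adjusted p of 0.166 and 16 of 18 kidneys under the mean of the controls, so of the 3 grades and their pool only severe passed. The direct comparison of severe with mild gave -0.32 (SE 0.11, adjusted p = 0.247), so a difference between these grades did not pass. Within the 3 slides the severe kidneys differed from the controls of the same slide by -0.52, -0.56 and -0.21. The call was lost without severe replicate 1, 2 or 5, where the change was -0.37, -0.37 and -0.33 (adjusted p = 0.0554, 0.0568 and 0.0538). It was also lost with the severe and control groups compared alone (-0.39, adjusted p = 0.0695) and with the replicate number as a block (-0.39, adjusted p = 0.0521).

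The fall of Kdr rested on the brighter of its 2 probes. That probe is printed in 10 spots on each array, and the spots of 1 array differed with a median SD of 0.03, far less than the kidneys did. The other probe has 1 spot. It stood at 2.20 ± 0.40 (SD, n = 6) among controls and 2.22 ± 0.31 (SD, n = 6) in severe kidneys, a change of 0.02 (SE 0.17, 95% interval -0.34 to 0.38, adjusted p = 0.948 in a fit of every probe on its own). The levels of the 2 probes correlated with r = 0.13 over the 24 kidneys, and both carry the same transcript accession. With the mean of both probes the change in severe kidneys was -0.19 (adjusted p = 0.293). Which of the probes follows the transcript was not tested. With quantile normalization the change of the brighter probe was -0.26 (adjusted p = 0.067). In the authors' normalized table it was -1.15 (adjusted p = 0.164), where severe replicate 4 is listed at an intensity of 84 and the other kidneys lie between 2263 and 3615. On that kidney's array 1 of the 10 spots had a signal of 86.0 and was among the 2 marked as outliers, and the 8 kept spots lay between 2470 and 3800.

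**Figure D2:**
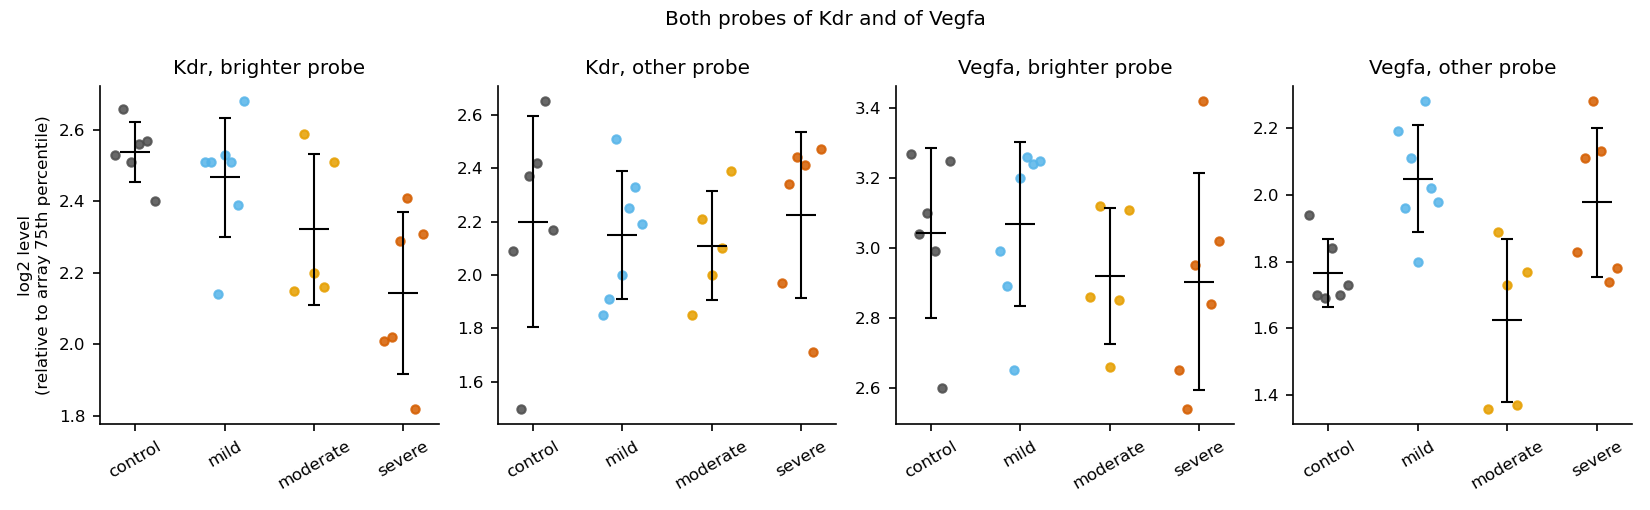
Log2 level of both probes of Kdr and both probes of Vegfa in the 24 kidneys, relative to the 75th percentile of the array, with group means and SD. The brighter Kdr probe steps down from control at 2.54 to severe at 2.14 (means), while the other Kdr probe stays at 2.20 and 2.22.

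Flt1, the high-affinity receptor that can act as a trap for VEGF, was the 1 gene that passed between all mgb-/- and control kidneys. Its level in control kidneys ran from 3.34 over a median of 3.59 to 3.70. In mild kidneys it ran from 3.64 over 3.84 to 4.17, and in severe kidneys from 3.53 over 3.75 to 4.15. The 5 moderate kidneys were at 3.98, 3.63, 3.96, 4.04 and 3.90. The groups overlapped, but 17 of the 18 kidneys with the mutation exceeded the mean of the controls and 12 exceeded every control. The rise was 1.22-fold, or 0.29 (SE 0.09, 95% interval 0.10 to 0.48, adjusted p = 0.0402), and 0.46, 0.18 and 0.23 within the 3 slides. By grade, the change was 0.30 for mild, 0.35 for moderate and 0.23 for severe kidneys (adjusted p = 0.108, 0.135 and 0.177). The call lay close to the threshold and was lost when any 1 of 12 kidneys was left out, namely control replicates 2 to 6, mild replicates 1, 3 and 7, moderate replicates 1, 3 and 4 or severe replicate 1, with a change of 0.25 to 0.31 and an adjusted p of 0.05 to 0.116. Scaling each array by its median moved the median change of all genes to -0.15, and on that scale Flt1 differed by 0.13 (adjusted p = 0.456). The soluble and membrane forms were not separated here.

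**Figure D3:**
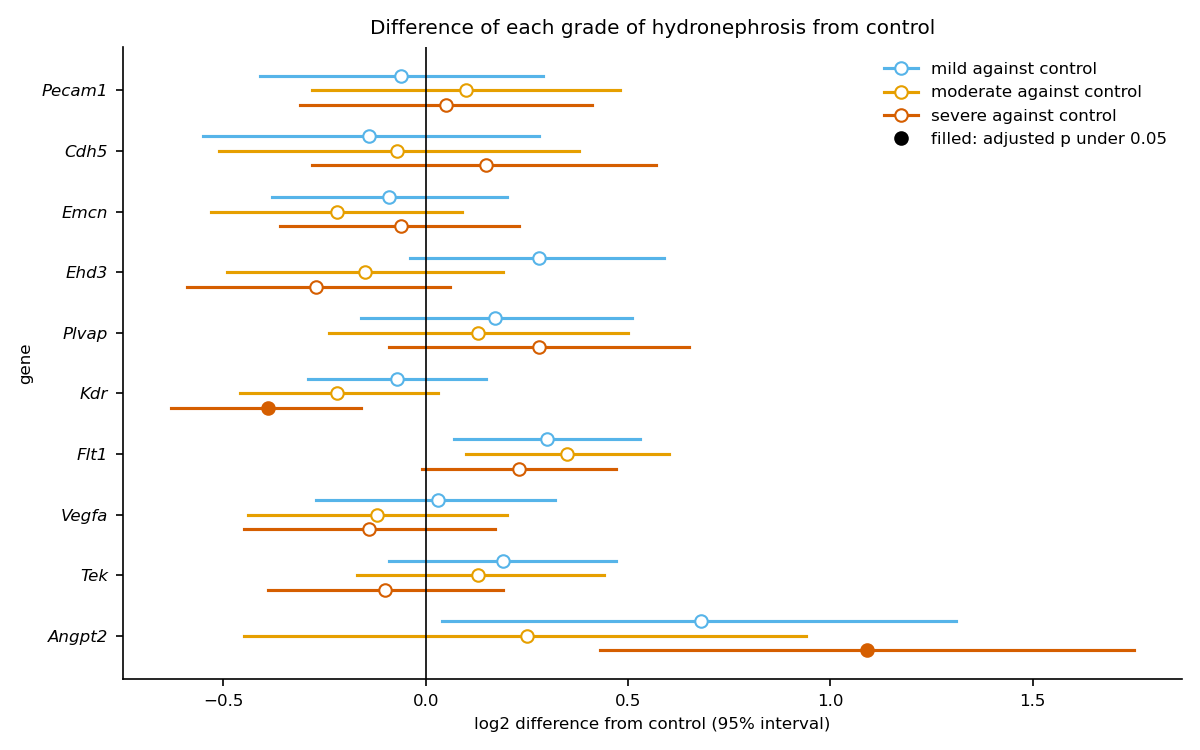
Log2 difference of each grade of hydronephrosis from control for the 10 genes, with the 95% interval from limma. Filled points passed an adjusted p of 0.05, which only Kdr (-0.39) and Angpt2 (1.09) did, both in severe kidneys, and Flt1 lies to the right of 0 in every grade.

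Vegfa, the growth factor that both of these receptors bind, gave no change that passed. Its level ran from 2.60 over a median of 3.07 to 3.27 in control, from 2.65 over 3.20 to 3.26 in mild and from 2.54 over 2.89 to 3.42 in severe kidneys. The 5 moderate kidneys were at 2.86, 3.12, 2.66, 2.85 and 3.11. All 4 groups overlapped, and the change over all mgb-/- kidneys was -0.07 (SE 0.12, 95% interval -0.32 to 0.18, adjusted p = 0.749). The brighter and dimmer probes of Vegfa differed in sign over all mgb-/- kidneys (-0.07 and 0.14) and in severe kidneys (-0.14 and 0.21). They shared a sign in mild (0.03 and 0.28) and in moderate kidneys (-0.12 and -0.14). Unlike those of Kdr, they are annotated to different transcripts of the gene. On the dimmer probe, controls averaged 1.77 ± 0.10 (SD, n = 6) and mild kidneys 2.05 ± 0.16 (SD, n = 7), while moderate kidneys averaged 1.62 ± 0.24 (SD, n = 5) and severe ones 1.98 ± 0.22 (SD, n = 6). Its change was 0.28 in mild (SE 0.11, adjusted p = 0.151) and 0.21 in severe kidneys (SE 0.12, adjusted p = 0.226), and the 2 probes correlated with r = 0.20 over the 24 kidneys. No direction is therefore given for Vegfa.

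Vegfa is a textbook target of the hypoxia-inducible factors, and 12 other such targets were read beside it. Of these, 2 rose and 2 fell in mgb-/- kidneys, where 5.34% of all genes rose and 8% fell. The median change was 0.16, beside 0.01 for all genes. At an unadjusted p under 0.05 by limma lay 8 of the 12, beside 29% of all genes. Slc2a1, the glucose transporter GLUT1, rose by 0.55 (SE 0.15, adjusted p = 0.0205), and Adm, the vasodilator peptide adrenomedullin, by 0.57 (SE 0.17, adjusted p = 0.034). Car9, a carbonic anhydrase, changed by -0.90 (SE 0.20, adjusted p = 0.0066) and was lower in all 7 mild kidneys (at most -1.18) than in any control (at least -0.97), as were 6.16% of all genes. Pgk1, of glycolysis, changed by -0.36 at the edge of the threshold (SE 0.12, adjusted p = 0.0499). In severe kidneys Egln1, the oxygen sensor that marks the factors for destruction, fell by 0.58 (SE 0.15, adjusted p = 0.0149). Of the subunits, Hif1a rose in mgb-/- kidneys by 0.35 (SE 0.12, adjusted p = 0.0457), and Epas1 stood at a median of 5.38 in control and 5.14 in severe kidneys, with 1 severe kidney not well above background. The targets thus moved in both directions.

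The bases before the start of transcription of Vegfa, Slc2a1 and Car9 are shown because one of these genes gave no change that passed, one rose and one fell. They are the 250 bases before the start in RefSeq (GRCm38.p6), 5′ to 3′ on the gene's strand, at chr17:46032378-46032627 (minus strand), chr4:119108495-119108744 (plus strand) and chr4:43506776-43507025 (plus strand). Capitals mark GGGCGG, the GC box, in Vegfa, and ACGTG, the core of the hypoxia response element, read on either strand, in the other two. GGGCGG was marked in the Vegfa window only, but the Slc2a1 window also holds it, unmarked, on the opposite strand. The Car9 window holds none.
Vegfa: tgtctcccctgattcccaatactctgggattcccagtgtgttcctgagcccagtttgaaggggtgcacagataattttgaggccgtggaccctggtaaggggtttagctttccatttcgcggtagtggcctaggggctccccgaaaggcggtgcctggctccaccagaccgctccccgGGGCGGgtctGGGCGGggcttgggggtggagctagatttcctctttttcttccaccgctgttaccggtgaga
Slc2a1: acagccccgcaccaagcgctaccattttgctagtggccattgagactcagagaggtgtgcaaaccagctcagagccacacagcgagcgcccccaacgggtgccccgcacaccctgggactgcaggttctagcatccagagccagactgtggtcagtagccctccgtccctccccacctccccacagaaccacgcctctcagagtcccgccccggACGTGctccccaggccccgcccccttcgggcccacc
Car9: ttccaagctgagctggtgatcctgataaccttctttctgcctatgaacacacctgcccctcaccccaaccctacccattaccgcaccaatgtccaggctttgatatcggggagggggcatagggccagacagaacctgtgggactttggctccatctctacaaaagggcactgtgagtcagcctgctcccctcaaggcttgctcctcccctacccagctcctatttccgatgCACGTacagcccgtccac
The Vegfa window holds GGGCGG at 2 places and no ACGTG, and a second annotated start of Vegfa has 1 ACGTG before it. The Slc2a1 window holds ACGTG once on the plus strand and the Car9 window once on the minus strand. Of 32851 promoter windows of this length, 16.6% held ACGTG and 32.7% held GGGCGG, each read on either strand. Of the 12 targets, 11 had a window. Of these, 9 held ACGTG, and 10 held GGGCGG, all but Car9. Of the targets that rose in mgb-/- kidneys, Slc2a1 held ACGTG and Adm did not, and both that fell, Car9 and Pgk1, held ACGTG. These are matches of letters and do not mark bound sites. Among the 10 vascular genes, Pecam1, Cdh5, Plvap and Angpt2 had no entry in the table of windows.

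Angpt2, the ligand that opposes Angpt1 at the Tek receptor, had the largest difference from control among the 10 in severe kidneys. Its level in control kidneys ran from 0.31 over a median of 0.59 to 1.12, and in mild kidneys from 0.68 over 1.36 to 1.90. The 5 moderate kidneys were at 1.22, 0.81, 1.93, 1.33 and -0.65, and the severe kidneys ran from 1.32 over 1.68 to 2.47. All 6 severe kidneys lay above all 6 controls, as was so for 2.86% of all genes in that direction, and moderate replicate 5 lay below every other kidney. Severe kidneys were 2.13-fold higher than control, with a change of 1.09 (SE 0.32, 95% interval 0.43 to 1.75, adjusted p = 0.0262). This was the 1 gene of the 10 that also passed a 2-fold minimum, which 4.71% of all genes did in that comparison. Within the 3 slides the severe kidneys differed from control by 1.17, 1.27 and 0.91.

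The other grades of Angpt2 did not pass. The mild change was 0.68 (SE 0.31, adjusted p = 0.203), and all 7 kidneys exceeded the mean of the controls, while the moderate one was 0.25 (SE 0.34, adjusted p = 0.741). Over all mgb-/- kidneys it was 0.70 (SE 0.28, adjusted p = 0.103). Here 17 of 18 kidneys exceeded the mean of the controls. A single kidney decided that value: without moderate replicate 5 it was 0.81 (adjusted p = 0.0106). The severe call was lost without control replicate 1, 2 or 3 or without severe replicate 1, 2 or 5, with an adjusted p of 0.0619 at most, and with scaling by the median, where the change was 0.92 (adjusted p = 0.0714). Severe against mild differed by 0.42 (SE 0.31, adjusted p = 0.641), so a step from mild to severe was not shown.

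Some markers of contractile cells were also higher in severe than in control kidneys, and only these group differences are given. Of the smooth muscle markers, 3 of 5 rose, where 6.56% of all genes did. Their summed linear signal, in units of the array's 75th percentile, lay between 35.7 and 107 in severe and between 14.5 and 27.5 in control kidneys. The brightest probes weigh most in such a sum, here those of Tagln and Acta2 (mean levels of 5 and 4.31 in severe kidneys). Of the pericyte and mesangial markers, 2 of 6 rose, beside the same 6.56%, with sums of 16.0 to 23.5 against 10.3 to 14.3. The 2 were Rgs5, by 1.35 (SE 0.25, adjusted p = 0.00224), and Notch3, by 0.86 (SE 0.20, adjusted p = 0.00847). Others hardly differed in their means. Cspg4 averaged 1.61 in control and 1.65 in severe kidneys, and Itga8 1.23 and 1.27. The smooth muscle marker Myh11 averaged -0.95 in both, and stood well above background on 5 of 6 severe arrays. The urothelial markers, of the lining of the renal pelvis, summed to between 70.2 and 230 in severe and between 6.14 and 18.3 in control kidneys. The 20 pan-endothelial genes summed to between 141 and 198 in severe and between 134 and 171 in control kidneys. The part of these cells in the change of Angpt2 was not tested.

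Tek, the receptor of the angiopoietins, and its other ligands were read beside Angpt2. Tek averaged -0.09 ± 0.13 (SD, n = 6) among controls and 0.09 ± 0.21 (SD, n = 7) among mild kidneys. Moderate kidneys averaged 0.04 ± 0.21 (SD, n = 5) and severe ones -0.19 ± 0.34 (SD, n = 6), and no difference passed. Angpt1, the ligand that activates Tek, stood at 0.75 ± 0.30 (SD, n = 6) among controls and 0.31 ± 0.38 (SD, n = 6) in severe kidneys, a change of -0.43 (SE 0.18, adjusted p = 0.0981). Angpt4, a further ligand, rose in severe kidneys by 1.09 (SE 0.30, adjusted p = 0.021), but its probe stood well above background on 1 of 6 control and 4 of 6 severe arrays. Ptprb, the phosphatase that dampens Tek, rose in mgb-/- kidneys by 0.38 (SE 0.12, adjusted p = 0.034), from 3.53 ± 0.10 (SD, n = 6) to 3.91 ± 0.27 (SD, n = 18). Tie1, the partner receptor of Tek, differed in severe kidneys by -0.06 (SE 0.15, adjusted p = 0.828).

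None of the 5 endothelial marker genes passed against control in any grade. Pecam1, the junction protein CD31 that is used to stain vessels, averaged -0.14 ± 0.23 (SD, n = 6) among controls and -0.12 ± 0.31 (SD, n = 18) with the mutation, a difference of 0.02 (SE 0.14, 95% interval -0.27 to 0.31). Cdh5, the cadherin of endothelial junctions, was at 0.78 ± 0.24 (SD, n = 6) and 0.76 ± 0.39 (SD, n = 18). Emcn, a sialomucin of capillaries and veins, was at 1.93 ± 0.17 (SD, n = 6) and 1.81 ± 0.25 (SD, n = 18). Plvap, which forms the diaphragms of peritubular capillary fenestrae, was at 4.48 ± 0.27 (SD, n = 6) and 4.68 ± 0.29 (SD, n = 17). The intervals of these differences reached from -0.37 to 0.33 for Cdh5, from -0.35 to 0.12 for Emcn and from -0.09 to 0.47 for Plvap. Both probes of Plvap kept together, with r = 0.87 over 23 kidneys.

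Ehd3, an endocytic protein that in kidney marks the glomerular capillaries, was the endothelial marker gene of the 5 that varied most with grade. Control kidneys ran from 2.24 over a median of 2.36 to 2.76, mild kidneys from 2.38 over 2.59 to 3.25, and severe kidneys from 1.59 over 2.24 to 2.47. The 5 moderate kidneys were at 2.34, 2.10, 2.17, 2.43 and 2.32. Severe and moderate kidneys were all below the mean of the mild ones, and 4 of 6 severe kidneys lay below every mild kidney. The change from mild to severe was -0.55 (SE 0.15, 95% interval -0.86 to -0.23), which at an adjusted p of 0.127 did not pass, and it was -0.43, -0.65 and -0.54 within the 3 slides. The change against control was 0.28 in mild (SE 0.15, adjusted p = 0.303) and -0.27 in severe kidneys (SE 0.16, adjusted p = 0.246). The podocyte markers, which belong to the glomerulus as well, had differences of the same sign between severe and mild kidneys. All 7 values were lower in severe kidneys, with a median of -0.69 beside -0.01 for all genes, 1 passed and 5 lay at an unadjusted p under 0.05 by limma. The 1 was Ptpro, a phosphatase of the podocyte surface, at -0.78 (SE 0.18, adjusted p = 0.0413). Against control, 0 of 7 passed in severe kidneys, with a median of -0.30 and 1 of 7 at an unadjusted p under 0.05. In mild kidneys all 7 were above control, with a median of 0.42, and 1 passed. Lower values in severe than in mild kidneys were not particular to glomerular markers. All 5 proximal tubule markers (median -0.48) and all 5 thick limb and distal tubule markers (median -0.34) were lower too. All 5 urothelial markers were higher (median 2.99). The part of glomerular content in the values of Ehd3 was not tested. Between grades none of the 10 genes passed, where 0.586% of all genes did for severe against mild, 0% for moderate against mild and 0.00715% for severe against moderate. At an unadjusted p under 0.05 by limma, 3 of the 10 lay lower in severe than in mild kidneys, Ehd3, Kdr and Tek, beside 11.1% of all genes in either direction. The same count was 1 for moderate against mild, Ehd3, beside 6.68% of all genes, and 1 for severe against moderate, Angpt2, beside 10.4%.

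Relations between 6 pairs of genes were computed over the 18 mgb-/- kidneys, each with permutation tests of 100000 resamples, two-sided and adjusted over the 6. Of these, 4 are given. Kidneys with more Vegfa had more Kdr, with Pearson's r = 0.74 (permutation p = 0.00037, adjusted 0.00222) and Spearman's rho = 0.78 (permutation p = 0.00025, adjusted 0.0015). The relation was r = 0.93, 0.67 and 0.91 within the 3 slides of 6 mgb-/- kidneys and 0.76 without the 2 kidneys farthest from the median of Vegfa. It depended on the probes: with the dimmer probe of Vegfa r was 0.31, with the other probe of Kdr 0.23 and with both 0.44 (adjusted permutation p = 0.306, 0.471 and 0.144). It was also r = -0.53 in the authors' table (adjusted permutation p = 0.112), which carries the single low Kdr value of severe replicate 4. Over all 24 kidneys Kdr ranked 418 among 13407 genes by its correlation with Vegfa, so that many genes followed the brighter Vegfa probe more closely.

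The other 3 pairs given did not pass. Vegfa with Flt1 gave r = -0.04 (permutation p = 0.866, adjusted 0.866) and rho = -0.04. Angpt2 with Tek gave r = -0.22 (permutation p = 0.393, adjusted 0.471) and rho = -0.28. Pecam1 with the leukocyte gene Ptprc gave r = 0.38 (permutation p = 0.115, adjusted 0.173) and rho = 0.39. Within slides the last of these was 0.03, 0.82 and -0.12, so it was high on 1 slide of 3.

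**Figure D4:**
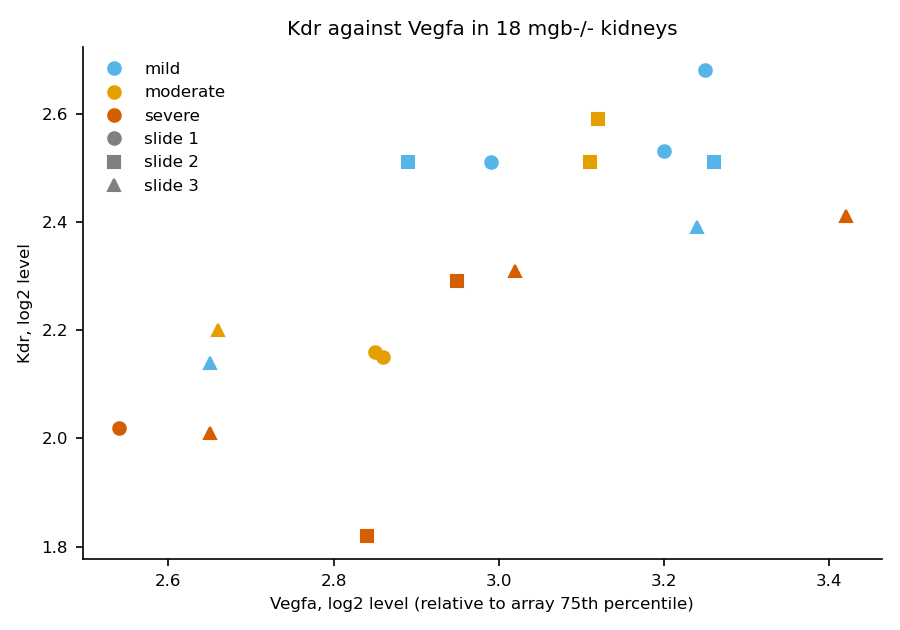
Log2 level of Kdr against that of Vegfa, each on its brighter probe, in the 18 mgb-/- kidneys, relative to the 75th percentile of the array. Colours are grades and shapes are slides, and the points (r = 0.74) run from lower left to upper right on all 3 slides.

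The named genes whose pattern over the 24 kidneys was most like that of 4 members were read from 13407 genes well above background on every array. Angpt2 was followed most closely by Ifitm1 (r = 0.96), Scarf2, Rem1, Mpzl1 and Rbms3, the last at r = 0.94. Pecam1 was followed by Tie1 and Cavin3 (both r = 0.84), Col4a2, C1qtnf6 and Enho, and Cdh5 ranked 94 for it with r = 0.70. Kdr was followed by Nacc2 (r = 0.91), Pstk, Casp9, Kpna6 and Wdr35, and Vegfa by Fyttd1 (r = 0.87), Plekhf2, Pds5b, Cspp1 and Prkcd. Kdr and Pecam1 correlated with r = -0.16 and Kdr and Angpt2 with r = -0.63. The 10 genes thus did not move as a block, with Pecam1 near Cdh5 and Emcn (r = 0.58) and away from Kdr, Flt1 (r = -0.08) and Ehd3 (r = -0.04). These correlations are descriptions over kidneys that share slides and scaling. Pecam1, Cdh5 and Emcn also followed the 75th percentile of the array over the 18 mgb-/- kidneys (r = 0.64, 0.49 and 0.51 with its log2), and the part of the array's brightness in their likeness was not tested.

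Beyond the 10, the pan-endothelial genes were read as a list of 20. In mgb-/- kidneys 1 rose and none fell, with a median change of 0.10, and 6 of 20 lay at an unadjusted p under 0.05 beside 29% of all genes. In severe kidneys 2 rose and none fell, with a median of 0.17 beside 0.02 for all genes, and 5 of 20 lay at an unadjusted p under 0.05 beside 31.8%. In mild kidneys 1 rose and 1 fell, and in moderate kidneys none passed, with 2 of 20 at an unadjusted p under 0.05 by limma. These shares are near or below those of all genes. S1pr1, the sphingosine 1-phosphate receptor that tightens endothelial junctions, rose from -1.01 ± 0.26 (SD, n = 6) among controls to -0.07 ± 0.58 (SD, n = 18) in mgb-/- kidneys, a change of 0.94 (SE 0.24, adjusted p = 0.0137). Cldn5, the claudin of tight endothelial junctions, rose in severe kidneys by 0.57 (SE 0.18, adjusted p = 0.0358). Sox18, a transcription factor of young vessels, fell in mild kidneys by 0.81 (SE 0.22, adjusted p = 0.0318) and differed by -0.51 in severe ones (adjusted p = 0.128). Vwf, the clotting factor stored in endothelium, differed in severe kidneys by 0.79 (SE 0.32, adjusted p = 0.093).

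Among 11 other genes of the VEGF and angiopoietin pathways, 2 rose in mgb-/- kidneys, Ptprb and Vegfd, where 5.34% of all genes rose. Vegfd, a ligand best known for lymphatic growth, rose by 0.69 (SE 0.18, adjusted p = 0.0158). Its severe kidneys (0.51 to 1.60) lay above every control (-0.11 to 0.26), as did those of 2.86% of all genes. This was not particular to severe kidneys, since mild ones ran from 0.51 to 0.82. Moderate kidneys ran from -0.38 to 1.48. Pgf, the placental growth factor that binds Flt1, differed in severe kidneys by 0.98 (SE 0.36, adjusted p = 0.0644). Of the lymphatic genes, 2 of 3 measured rose in mgb-/- kidneys, beside the same 5.34%. Lyve1, a hyaluronan receptor of lymphatic endothelium and some macrophages, passed as higher (2.58, SE 0.56, adjusted p = 0.00608). The size is uncertain, since its probe stood well above background on 2 of 6 control arrays and 17 of 18 mgb-/- arrays. Pdpn, which podocytes also carry, rose by 0.84 (SE 0.25, adjusted p = 0.0306). Prox1, the defining factor of lymphatic endothelium, differed in severe kidneys by 0.63 (SE 0.31, adjusted p = 0.161).

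Genes of vessel sprouting went both ways, with 1 of 10 tip cell and Notch genes higher and 2 lower in mgb-/- kidneys. Of all genes, 5.34% were higher and 8% lower. By grade, 2 of the 10 passed as lower in mild kidneys and none passed in moderate ones, beside 6.02% and 1.2% of all genes in either direction. In severe kidneys 1 passed as higher and 0 as lower, beside 6.56% and 9.55%. Esm1, a proteoglycan of sprouting tip cells that in the kidney is found in glomerular endothelium, averaged 3.19 ± 0.11 (SD, n = 6) among controls and 2.42 ± 0.54 (SD, n = 18) with the mutation, a change of -0.77 (SE 0.22, adjusted p = 0.0235). Aplnr, the apelin receptor of veins and sprouts, changed by -1.09 (SE 0.31, adjusted p = 0.0228), from 0.09 ± 0.40 (SD, n = 6) to -1.0 ± 0.74 (SD, n = 18). Jag1, a Notch ligand, rose by 0.42 (SE 0.13, adjusted p = 0.0399). Of 7 arterial, venous and vasa recta genes, 2 rose in mgb-/- kidneys, beside 5.34% of all genes. They were the arterial connexin gene Gja4, by 0.71 (SE 0.13, adjusted p = 0.00242), and the arterial kinase gene Bmx, by 0.40 (SE 0.11, adjusted p = 0.0192). In severe kidneys, where 6.56% of all genes rose, the arterial ephrin gene Efnb2 rose as well, by 0.41 (SE 0.10, adjusted p = 0.0121).

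Activation genes and inhibitors of angiogenesis were higher where they moved. None of 6 measured activation genes passed between mgb-/- and control kidneys, where 13.3% of all genes did. At an unadjusted p under 0.05 by limma lay 3 of the 6, beside 29% of all genes. In severe kidneys Edn1, the vasoconstrictor endothelin that collecting duct cells also make, rose by 1.58 (SE 0.53, adjusted p = 0.045), with a spread from -3.46 to -0.21 among those 6 kidneys. Its mean was higher still in moderate kidneys, at -1.60 beside -2.10 in severe and -3.68 in control kidneys. No activation gene passed in moderate kidneys. Of 6 inhibitors, 2 rose in mgb-/- kidneys, where 5.34% of all genes did. They were Thbs1, the matrix protein thrombospondin-1, by 1.16 (SE 0.31, adjusted p = 0.0183) and Adamts1, a protease that binds VEGF, by 0.83 (SE 0.17, adjusted p = 0.00438). In severe kidneys Thbs1 rose by 1.59 (SE 0.37, adjusted p = 0.00888), and all severe kidneys lay above all controls, as for 2.86% of all genes. Leukocyte markers gave 0 of 8 measured genes in either comparison, beside 13.3% and 16.1% of all genes. None lay at an unadjusted p under 0.05 by limma, beside 29% and 31.8%. Erythroid markers, which travel with blood left in the tissue, rose for 1 of 3 genes in mgb-/- kidneys, beside 5.34% of all genes. The gene was Alas2, by 1.14 (SE 0.32, adjusted p = 0.0222). In severe kidneys 2 of 3 rose, beside 6.56% of all genes. These were Alas2, by 1.51 (SE 0.37, adjusted p = 0.0124), and the haemoglobin gene Hba-a1, by 0.94 (SE 0.30, adjusted p = 0.0379). All 3 lay at an unadjusted p under 0.05 by limma, beside 31.8% of all genes. The part of blood content in the vascular values was not tested.

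**Figure D5:**
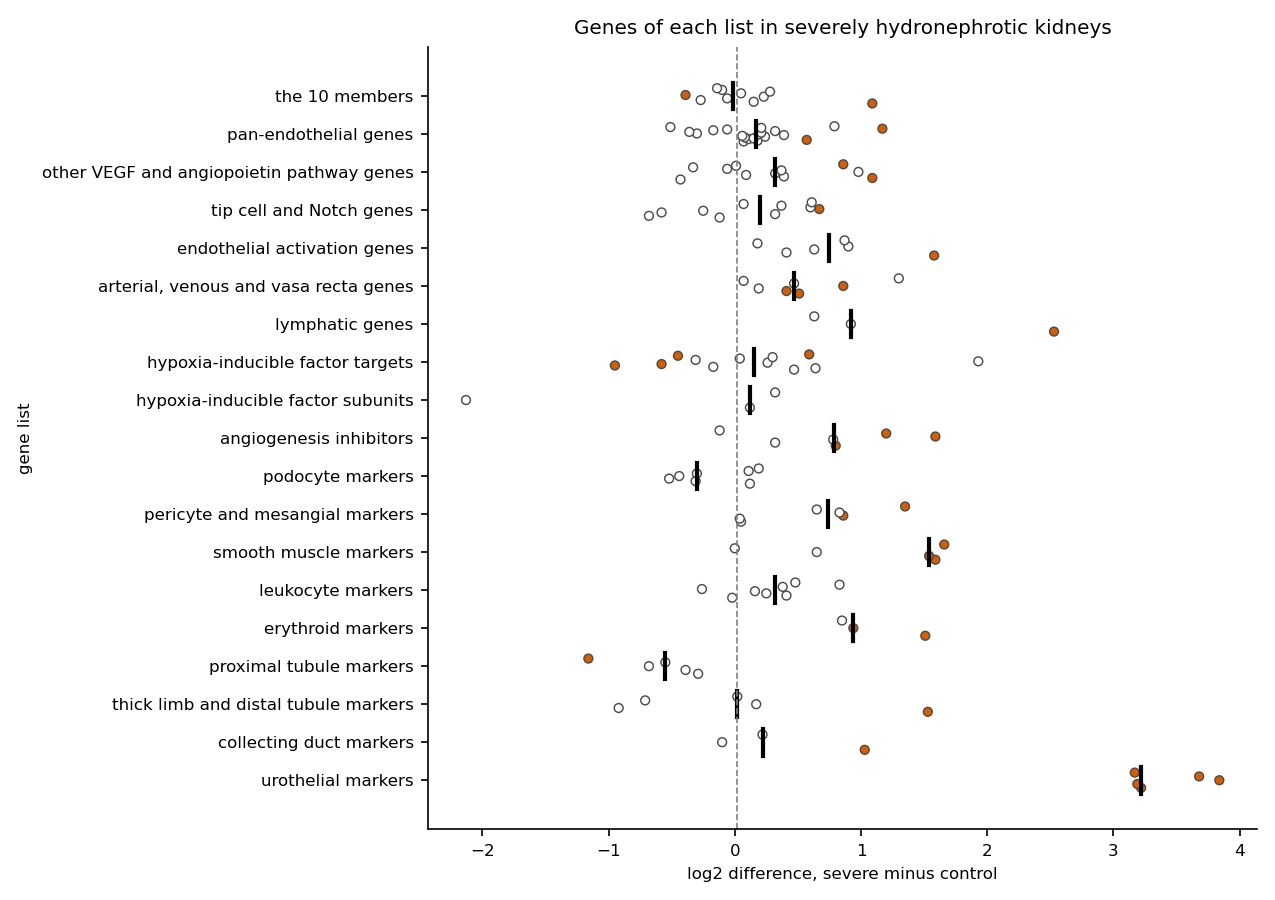
Log2 difference between severe and control kidneys for the genes of each list. Circles are genes, filled where the adjusted p from limma was under 0.05, thick bars are list medians and the dashed line is the median of all genes (0.02). The 10 members (median -0.01) and the pan-endothelial genes (0.17) lie near that line, while smooth muscle (1.54) and urothelial markers (3.22) lie to its right.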

How the data were processed

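RNA of 24 whole kidneys was hybridised to 1-colour Agilent arrays. The deposited scanner files hold intensities made by Agilent Feature Extraction 10.10, per the submitters' processing notes, and the processed signal was used. The authors' table holds whole-number intensities on a linear scale, with column medians of 75 to 77 and correlations of at least 0.965 with the scanner values. How it was normalized between arrays is not given in the sources used here, and it served as an alternative. Outlier spots were left out, spots of a probe were averaged, and log2 signals were taken relative to the array's 75th percentile. RefSeq named 26762 of 55681 probes, while 28919 stayed unnamed. The probe with the highest mean stood for its gene, and 27971 genes were well above background on 5 or more arrays. No spot was saturated, and the 75th percentile ran from 496 to 968. The number of arrays limits the precision.

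Groups came from the labels. limma 3.58.1 (R 4.3.3) compared mgb-/- with control kidneys in a fit of 2 groups and the grades in a fit of 4, with Benjamini-Hochberg adjustment and a threshold of 0.05, and was tested on simulated data. Of 6 correlations, 2 involve a gene that is not reported here. They were computed with SciPy 1.17.1 (Python 3.11.15) and figures with matplotlib 3.10.9. The genes named were the 10, those of the lists, and the 5 most correlated with each of 4 members. The members and lists were chosen with earlier results of these data known. Alternatives were quantile and median scaling, normexp with an offset of 50, the authors' table, other filters, probes, thresholds and samples in the fit, slide or replicate number as a block, array weights, and each kidney left out. The files lack the mean signal planned for normexp, so the median signal was used. The other probe of a gene was added as an alternative after seeing the data.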

Additional observations from a re-analysis of the deposited data

Results flagged for a closer look

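A single kidney stood far from the rest of its group in 2 of the 40 groups examined, where chance gives about 1 in 20. In Cdh5, severe replicate 5 was at 1.62, while the other 5 severe kidneys lay between 0.67 and 0.86. In Tek, control replicate 5 was at -0.34, while the other 5 controls lay between -0.10 and 0.04.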

How the results depend on the processing

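Of the calls, Flt1 in mgb-/- kidneys was lost with median scaling (0.13), without a filter (0.29, adjusted p = 0.0628) and with the replicate block (0.27, adjusted p = 0.064). The count of members called fell from 1 to 0 in these settings and at a 2-fold minimum, and was 2 with array weights and 0 to 2 with 1 kidney left out. In mild kidneys it was 1 in the authors' table, 2 with array weights and 1 with the groups compared alone, against 0. In severe kidneys it was 1 with median scaling, the mean of probes, the groups compared alone or a 2-fold minimum, 0 with the replicate block and 0 to 2 with 1 kidney left out, against 2. It was 3 in the authors' table, where Flt1 (0.48) and Plvap (0.56) passed and Kdr did not, and 2 with quantile normalization, where Flt1 (0.42) passed and Kdr did not. With the replicate block Kdr was at -0.39 (adjusted p = 0.0521) and Angpt2 at 1.09 (adjusted p = 0.0629) in severe kidneys. Whether the numbers pair some of the kidneys cannot be told from correlations between kidneys. The 33 pairs of one number ran from -0.55 to 0.65 with a median of 0, and the 182 pairs of different numbers also had a median of 0.

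Some signs turned. With quantile normalization the mgb-/- values were 0.01 for Cdh5, 0.07 for Ehd3 and 0.05 for Vegfa, Kdr in mild kidneys was 0.00, the severe values were 0.04 for Emcn and 0.02 for Vegfa, and Flt1 was 0.02 in severe against mild. With median scaling Pecam1 and Tek were -0.14 and -0.08 in mgb-/-, Pecam1 and Cdh5 -0.12 and -0.03 in severe kidneys, and r was 0.39 for Vegfa and Flt1 and 0.01 for Angpt2 and Tek. In the authors' table the mgb-/- values were 0.04 for Ehd3 and 0.07 for Vegfa, the severe ones 0.04 for Emcn and 0.07 for Vegfa, Flt1 was 0.02 in severe against mild, and r was -0.53 for Vegfa and Kdr. With the mean of probes Vegfa was 0.04 in mgb-/- and 0.04 in severe kidneys, and Plvap -0.09 in severe against mild. With slide as a block Emcn was 0.00 in severe against mild. With array weights Cdh5 and Ehd3 were 0.03 and 0.18 in mgb-/-, Pecam1 -0.11 in severe kidneys, and Pecam1, Cdh5 and Emcn -0.12, -0.01 and -0.06 in severe against mild. With the other probe Vegfa was 0.14 in mgb-/- and 0.21 in severe kidneys, and Kdr 0.02 in severe kidneys and 0.07 in severe against mild. With 1 kidney left out, Pecam1 ran from -0.05 to 0.08, Cdh5 from -0.07 to 0.06 and Ehd3 from -0.07 to 0.04 in mgb-/-, Angpt2 from 0.00 to 0.64 in moderate, Pecam1 from -0.03 to 0.11 in severe kidneys, and Emcn from -0.06 to 0.09 in severe against mild. Among correlations, Vegfa with Kdr was lost with the other probes (r = 0.31, 0.23 and 0.44). The cause was not tested.

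Over all genes, 3731 passed between mgb-/- and control, 2117 with the replicate block and 8569 with array weights. For severe against control 4508 passed, 1853 with the groups compared alone, 2667 with the replicate block and 7686 with array weights.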
